A study of Mus musculus with 2 samples.

Results

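The membrane mucins of the ocular surface are followed here as 6 genes out of the 20198 in the count table: the transmembrane mucins Muc1, Muc4, Muc15, Muc16 and Muc20, and Lgals3, which encodes the mucin-binding lectin galectin-3. They were chosen by name for their place on the surface of the eye, not by a measured value, though with earlier results of these data known. Single cells of mouse cornea were measured by droplet RNA sequencing in 2 libraries, each a pool of cells from 4 male mice aged 6 to 8 weeks. UW held unwounded corneas, and W held corneas taken 24 h after a wound of 2.5 mm in the central epithelium. The paper describes pentobarbital anaesthesia, topical procaine and ofloxacin with the wounding, so their effects cannot be told apart from that of the wound. With 1 library per condition there are no replicates, so no test was made between UW and W, and differences between the pools of mice cannot be told apart from the effect of the wound.

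Transmembrane mucins are long, heavily O-glycosylated proteins anchored in the apical membrane of epithelial cells. On the cornea and conjunctiva they form the glycocalyx, the sugar-rich coat that holds the tear film, lowers friction and keeps microbes and particles off the cells. Galectin-3 binds the sugar chains of these mucins and cross-links them into a barrier. Shedding of their outer domains and the glycosyltransferases that build their sugar chains both act on that barrier, and Muc1 and Muc4 also signal through their cytoplasmic tails or receptor partners.

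UW had 16450 cells and 367166822 UMIs (unique molecular identifiers, each counted as 1 transcript molecule), and the middle cell held 22014 UMIs and 3976 genes. W had 12417 cells and 289586482 UMIs, and its middle cell held 20290 UMIs and 3981 genes. The libraries shared 52 cell barcodes. Levels are UMIs per 1000000 of all UMIs in a sum of cells (CPM), and the ranges after them are exact 95% Poisson intervals. These intervals, the exact Clopper-Pearson 95% intervals of shares and the intervals of ratios cover counting error only and say nothing of how mice differ.

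Of the 17 deposited clusters, 11 were taken as epithelial because epithelial markers stood higher in them than stromal, neutrophil, macrophage or T cell markers. They held 13508 UW cells (82.1%) and 8861 W cells (71.4%). One of them, cluster 14, was led by H2-Aa, Cd74 and C1qa, with 2 immune and 0 epithelial markers among its 10 leading genes, and had 7 UW and 354 W cells. Cluster 14 stays in the epithelial sums. Ratios of the 6 members and sums of some immune markers are also given without it. The sums of the other gene lists and the epithelial shares of cells include it. The other 10 epithelial clusters are set out by their leading genes. Clusters 9 (Wfdc18, Dlk2), 8 (Top2a, Mki67), 11 (Mcm3, Uhrf1) and 3 (Krt18, Itgb4) had the 4 lowest scores of the superficial marker list, and clusters 7 (Lce3a, Lce3f) and 6 (Krt78, Psca) the highest. Between them came clusters 1 (Pygl, Dapl1), 4 (Cldn17, Dsg1a) and 2 (Ly6g6c, Spink5), and cluster 5 (Krt4, Krt19, Krt8), which had the highest score of the conjunctival list. Cluster 0, led by Kera, gave the stromal reference: free RNA in droplets puts mucin UMIs into cells that should lack the genes, so the level of cluster 0 was taken as a measure of background. Its cells were shallower than most epithelial ones, so the comparison was made in CPM and, after its outcome was seen, also in UMIs per cell: 81 levels of a member in 1 of the 10 clusters of a library were above the stromal interval in CPM, and 95 were per cell. The clusters were made by the authors on the same cells and genes, so differences between clusters are a description. Marker levels within a cluster also differed between UW and W, so a ratio within a cluster may compare cells of different states.

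Summed over the epithelium, Muc4, Muc15 and Muc20 were more than 2-fold lower at 24 h, Muc16 went from almost nothing to a trace, and Muc1 and Lgals3 differed little. Muc15 was at 114 CPM (113 to 115) in UW and 39.7 CPM (38.9 to 40.5) in W, 2.87-fold lower. Muc4 was at 910.1 CPM (907 to 913) in UW and 395 CPM (393 to 398) in W, 2.30-fold lower. Muc20 was at 121 CPM (119 to 122) in UW and 56.0 CPM (55.1 to 57.0) in W, 2.15-fold lower. As log2 ratios of W over UW these were −1.52 (−1.55 to −1.49), −1.20 (−1.21 to −1.19) and −1.11 (−1.13 to −1.08), in that order. They are 3 of 6 members at least 2-fold lower in W, where 8.58% of the 16603 genes tested were that much lower. As the mean over cells of the CPM of each cell, Muc15 stood at −1.37, while Muc4 at −0.90 and Muc20 at −0.77 fell short of 2-fold. Muc1 stood at 0.026. The share of all genes past 2-fold was not counted on that scale.

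Muc16 was the 1 member of 6 at least 2-fold higher in W, where 23.3% of genes tested were, and it rested on 3 UMIs in UW and 86 in W. Muc1 was at 37.6 CPM (36.9 to 38.2) in UW and 34.3 CPM (33.6 to 35.1) in W, a log2 ratio of −0.13 (−0.17 to −0.090). Lgals3 was at 1632 CPM (1628 to 1636) in UW and 1867 CPM (1861 to 1872) in W, a log2 ratio of 0.19 (0.19 to 0.20). The median log2 ratio of all genes tested was 0.23, so Lgals3 lay just under the middle of the table. Scaling by TMM or by median of ratios moved that median, and with it each log2 ratio, by −0.24 or −0.25, which turned Lgals3 to −0.043 or −0.059 and kept the direction of the other 5 members. Without cluster 14 the log2 ratios were −0.11 for Muc1, −1.19 for Muc4, −1.51 for Muc15, 5.30 for Muc16, −1.09 for Muc20 and 0.18 for Lgals3.

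The make-up of the epithelium differed between the libraries. Cluster shares are given here out of all cells of a library, stromal and immune cells included. Cluster 7 was 9.19% of UW cells and 4.25% of W cells, and cluster 6 was 9.32% and 5.25%. Cluster 1 was 14.96% of UW cells and 4.76% of W cells. Clusters 2 and 4 also had smaller shares in W, 7.15% and 7.34% against 11.6% and 9.33% in UW. Of the 6 clusters that led in Muc4 and Muc20 (below), cluster 5 alone had a larger share in W, 9.67% against 6.69% in UW. Clusters 8 and 9, low in Muc4 and Muc20, had larger shares in W too, 10.7% against 3.25% and 7.70% against 3.17%. The 6 superficial markers together were at 20750.4 CPM in UW and 5824 CPM in W, with 2 of 6 higher in W. Lypd2, the most abundant in UW, was at 11132 CPM and 2620 CPM. The 6 basal markers together were at 12841 CPM in UW and 25512 CPM in W, with 5 of 6 higher in W. Krt5, the most abundant in UW but not in W, was at 6890.3 CPM and 6334 CPM. The rest of that list together was at 5950 CPM in UW and 19178 CPM in W. The 5 conjunctival markers together were at 3320 CPM in UW and 5365 CPM in W, 5 of 5 higher, and Krt13, the most abundant, was at 2637 CPM and 3312 CPM. The 4 suprabasal markers were at 3051 CPM together in UW and 5394 CPM in W, with 1 of 4 higher. That was Krt16, the most abundant in W but not in UW, at 726 CPM and 4666 CPM. The other 3 together were at 2325 CPM and 728 CPM. Cycling markers were at 109 CPM and 314 CPM, 6 of 6 higher, with Ube2c at 21.1 CPM and 91.3 CPM. No gene of these 5 lists was at 0 in both libraries. The part of the make-up in the differences was not tested, apart from holding the share of each cluster, which also changed the weighting.

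With the share of each cluster held at its UW value, Muc4, Muc15 and Muc20 differed less between the libraries, and Muc1, Muc16 and Lgals3 differed more. This scale weights clusters by cells, whereas the sums weight them by UMIs. The UW levels therefore moved too, for Muc4 from 910 CPM to 832 CPM. The effects of the share and of the weighting were not separated. Muc15 was then at 107 CPM in UW and 53.9 CPM in W (log2 ratio −0.99), Muc4 at 832 CPM and 611 CPM (−0.45), and Muc20 at 111 CPM and 90.4 CPM (−0.30). On this scale 0 of 6 members were at least 2-fold lower, where 10.1% of genes were, and 1 of 6 was at least 2-fold higher, where 14.9% of genes were. Muc4 at −0.90 and Muc20 at −0.77 fell short of 2-fold as the mean CPM per cell too, where no mix was held. Muc1 turned from lower to higher, at 36.9 CPM in UW and 47.4 CPM in W (0.36). Lgals3 was at 1533 CPM and 2299 CPM (0.59), and the log2 ratio of Muc16 was 5.98. The median of all genes tested was 0.010 with the mix held.

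Muc4 encodes a large membrane mucin that partners the receptor ErbB2. In both libraries its level was highest in the 2 clusters with the highest superficial scores. In UW it was 2542 CPM in cluster 7, 2093 CPM in cluster 6, 1127 CPM in cluster 2, 999.9 CPM in cluster 5, 420.3 CPM in cluster 4 and 69.6 CPM in cluster 1, with intervals that did not overlap between neighbours in this order. Clusters 9, 8, 3 and 11 ranged from 32.1 to 40.8 CPM in UW, each with an interval that overlapped the next. Those 4 were not above the stromal level of 35.3 CPM (33.1 to 37.6), but with 0.597 to 0.815 UMIs per cell they were above the stromal 0.424 UMIs per cell (0.398 to 0.451), so the comparison with background depends on the scale there.

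Among the 10 clusters the same 6 led in W, in the same order: 1859 CPM in cluster 7, 1525 CPM in cluster 6, 897 CPM in cluster 2, 481 CPM in cluster 5, 386 CPM in cluster 4 and 73.5 CPM in cluster 1. Muc4 was lower in W in 9 of 10 clusters, 7 of them with intervals apart. Of the 10062 genes tested in all 10 clusters 28.7% were lower in at least as many, and 24.1% with intervals apart in at least as many, so its count is not unusual in this table. The difference was widest among clusters above the stromal level in CPM in the Krt4 and Krt19 cluster 5, with a log2 ratio of −1.06 (−1.08 to −1.03). It was −0.46 (−0.48 to −0.44) in cluster 6 and −0.45 (−0.47 to −0.43) in cluster 7. In cluster 4 the log2 ratio of −0.12 (−0.16 to −0.087) equalled the median of all genes in that cluster, −0.12, and in cluster 1 it was 0.078 (−0.022 to 0.18). Stromal Muc4 was itself lower in W, at 22.2 CPM (20.6 to 23.8), a log2 ratio of −0.67 (−0.81 to −0.53). Clusters 3 and 11 of W were above it at 28.4 and 27.0 CPM. The part of background in the lower levels of the clusters near it was not tested.

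Muc20, a smaller membrane mucin, ranked the 6 leading clusters as Muc4 did. In UW it stood at 399 CPM in cluster 7, 285 CPM in cluster 6, 130.2 CPM in cluster 2, 103 CPM in cluster 5, 41.7 CPM in cluster 4 and 9.03 CPM in cluster 1, again with neighbours apart. In W the same clusters had 331, 235, 112, 63.9, 29.8 and 6.96 CPM. Clusters 9, 3, 11 and 8 were at 5.65 CPM or less in UW and at 4.42 CPM or less in W, none above the stromal 5.03 CPM (4.24 to 5.92) in UW or 3.94 CPM (3.29 to 4.69) in W; per cell, clusters 8 and 11 of W alone were above it. Muc20 was lower in W in 8 of 10 clusters, as 35.8% of genes were in at least as many, with the widest difference above background in cluster 5, at a log2 ratio of −0.69 (−0.77 to −0.61). The 8 include clusters 9 and 3, above the stromal level on neither scale.

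Muc4 and Muc20 lie side by side on the genome. In the mouse build GRCm38 (GENCODE M21) Muc4 spans chr16:32735886-32782391 on the plus strand and Muc20 spans chr16:32777419-32797435 on the minus strand. Their 3′ ends overlap over chr16:32777419-32782391, a stretch of 4973 bases. The epithelial sums held 7.55 Muc4 UMIs per Muc20 UMI in UW and 7.06 in W. Over the 10 clusters the ratio ran from 6.37 in cluster 7 to 10.6 in cluster 8 in UW, and from 5.61 in cluster 7 to 13.0 in cluster 4 in W, and the stromal cluster had 7.02 and 5.62.

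Muc15 encodes a small membrane-anchored mucin. It peaked in the middle of the series and not at its superficial end. In UW cluster 4 had 230.2 CPM (226 to 235) and cluster 1 had 225 CPM (221 to 229), with overlapping intervals. Muc15 is among the 10 leading genes of both clusters, so its height there is part of what set them apart. Cluster 2 followed with 161 CPM, then clusters 5 and 6 with 59.9 and 56.99 CPM, whose intervals overlapped, then cluster 3 with 30.6 CPM, cluster 11 with 12.5 CPM and cluster 8 with 8.83 CPM. Cluster 7, the richest in Muc4, had 5.35 CPM (4.62 to 6.15) and cluster 9 had 4.73 CPM (3.31 to 6.54), neither above the stromal 5.59 CPM (4.75 to 6.53); per cell, cluster 7 was above the stroma, at 0.128 UMIs (0.111 to 0.148) against 0.0671 (0.0571 to 0.0784), and cluster 9 was not.

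The clusters highest in Muc15 in UW were far lower in W. Cluster 1 had 74.4 CPM (70.0 to 79.0) in W, a log2 ratio of −1.60 (−1.69 to −1.51). It was the 1 member of 5 tested at least 2-fold lower in cluster 1, where 11.0% of genes were. Cluster 4 had 100.3 CPM (96.2 to 104) in W, a log2 ratio of −1.20 (−1.27 to −1.13), again the 1 member of 5 that far down, beside 13.5% of genes. In cluster 3 Muc15 was at 10.99 CPM (9.66 to 12.4), a log2 ratio of −1.48 (−1.68 to −1.28), the 1 member of 6 that far down, beside 11.1% of genes. Marker levels of these clusters differed as well. In cluster 1 Krt14 was at 136 CPM in UW and 17124 CPM in W, and Dapl1 at 3009 and 1087 CPM. In cluster 4 Krt14 was at 57.3 and 14624 CPM, and Dsg1a at 727 and 114 CPM. A cluster may thus hold cells of different states in UW and W, and the part of this in the Muc15 ratios was not tested.

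The difference was not the same in all clusters, and Muc15 was higher in W in 4 of 10, 2 of them with intervals apart. It was the 1 member of 5 at least 2-fold higher in a cluster and that much lower in another with intervals apart in each, as 2.60% of the 10062 genes tested in all 10 clusters were. Cluster 2 had 101.2 CPM in W (log2 ratio −0.67, −0.73 to −0.60) and became the highest, with an interval that overlapped that of cluster 4. Cluster 6 had 61.4 CPM (0.11, −0.0023 to 0.22). Cluster 7 had 10.9 CPM (9.09 to 12.9), a log2 ratio of 1.03 (0.69 to 1.35), the 1 member of 5 at least 2-fold higher there, where 23.2% of genes were and the median log2 ratio of all genes was 0.26, the highest of the 10 clusters. That level was above the stromal 1.76 CPM (1.33 to 2.28) in W, whereas the UW level was above its own per cell but not in CPM. Among the clusters low in superficial markers, cluster 8 had 12.1 CPM in W (0.45, 0.16 to 0.75) and cluster 11 had 13.6 CPM (0.11, −0.17 to 0.40). The stromal level itself was lower in W, by a log2 ratio of −1.67 (−2.13 to −1.23).

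Muc1 encodes a membrane mucin found on most wet epithelia. It had 2 high points, the conjunctival-marker cluster 5 and the Lce3a cluster 7, and they differed in opposite directions. Cluster 5 was highest in UW with 159 CPM (154 to 164) and had 89.2 CPM (86.2 to 92.4) in W, a log2 ratio of −0.83 (−0.90 to −0.77). Cluster 7 had 138 CPM (134 to 142) in UW and was highest in W with 249 CPM (240 to 258), a log2 ratio of 0.85 (0.79 to 0.92). The difference between the 2 clusters was not tested. Cluster 6 came next, with 43.4 CPM in UW and 54.4 CPM in W, before cluster 2 with 12.3 and 18.0 CPM and cluster 4 with 6.39 and 6.66 CPM.

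Muc1 was higher in W in 9 of 10 clusters, 7 of them with intervals apart, and cluster 5 was the exception. At least as many clusters were higher for 26.0% of genes, and higher with intervals apart for 22.2%. The log2 ratio was largest where Muc1 was low, at 1.82 in cluster 1, 1.64 in cluster 11 and 1.09 in cluster 8. In these clusters 14.7%, 12.7% and 10.9% of genes, in that order, were at least 2-fold higher. In UW clusters 9, 8, 1, 3 and 11 had 3.81 CPM or less and were not above the stromal 2.36 CPM (1.83 to 2.99), though clusters 1, 8 and 9 were above it per cell, at 0.0561, 0.0673 and 0.0557 UMIs against 0.0283 (0.0219 to 0.0359). In W cluster 1 had 8.70 CPM (7.24 to 10.4), cluster 11 had 6.23 CPM (5.18 to 7.43) and cluster 8 had 5.99 CPM (5.33 to 6.72), above the stromal 3.17 CPM (2.59 to 3.85). Clusters 9 and 3 were at 4.34 and 4.25 CPM and not above it in CPM, but were above it per cell. Whether Muc1 was above background thus depends on the scale in clusters 1, 8 and 9 of UW and 3 and 9 of W. It was above on neither scale in clusters 3 and 11 of UW, and on both in clusters 1, 8 and 11 of W.

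Muc16 encodes the largest of these mucins and is a well-known glycocalyx mucin of the human ocular surface. It was nearly undetected in these libraries. In UW 3 of 16450 cells (0.0182%, 0.00376 to 0.0533) held 1 UMI each, in clusters 2, 6 and 8. In W 76 of 12417 cells (0.612%, 0.483 to 0.765) held 86 UMIs, at most 4 in a cell. The epithelial CPM was 0.00901 in UW and 0.354 in W, a ratio of 39.3 with a counting interval of 13.0 to 194 that its 3 UW UMIs make wide. Stromal cluster 0 had 0 UMIs in both libraries, with upper Poisson limits of 0.130 CPM in UW and 0.114 CPM in W; 3 UMIs would be 0.105 and 0.0925 CPM.

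Unlike Muc4 and Muc20, the few Muc16 UMIs of W were most frequent in a cluster with low superficial markers. Cluster 3, led by Krt18, held 32 of the 86, that is 1.42 CPM (0.970 to 2.001) in W, against 0 UMIs in UW, a ratio with a lower 95% counting limit of 11.9. Cluster 4 held 17 (0.750 CPM, 0.437 to 1.20), cluster 7 held 8 (0.670 CPM, 0.289 to 1.32) and cluster 1 held 4 (0.278 CPM, 0.0758 to 0.712), each against 0 in UW, with lower limits of 7.86, 5.19 and 2.58. In the order of W levels, clusters 3, 4, 7, 6 and 1, the interval of each overlapped that of the next. The remaining UMIs were 9 in cluster 6, 8 in cluster 8, 4 in cluster 2, 2 in cluster 5, 1 in cluster 11 and 1 in cluster 14, with 0 in cluster 9.

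Galectin-3 RNA was abundant throughout the epithelium and higher at 24 h in each cluster compared. In UW Lgals3 was lowest in cluster 9 at 412 CPM, followed by cluster 8 (467 CPM), cluster 11 (633 CPM) and cluster 3 (716 CPM). Higher still were cluster 1 (1141 CPM), cluster 4 (1397 CPM), cluster 5 (1966 CPM), cluster 7 (2143 CPM), cluster 2 (2165 CPM) and cluster 6 (2665 CPM). The intervals of neighbours in this order overlapped for clusters 7 and 2 alone. In W cluster 7 was highest with 3539 CPM and cluster 9 lowest with 641 CPM.

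Lgals3 was higher in W in 10 of 10 clusters, all 10 with intervals apart, where 17.8% of the 10062 genes tested were higher in each of the 10 and 8.97% were so with intervals apart in each. Of the 5 members tested in this way it was the 1 that was. Its log2 ratio was smallest in cluster 6 at 0.30 (0.29 to 0.32) and largest in cluster 3 at 1.11 (1.09 to 1.14), while the median of all genes in a cluster lay between −0.14 and 0.26. In cluster 3 the level was 716 CPM (707 to 725) in UW and 1549 CPM (1533 to 1566) in W. The epithelial sum, at 0.19, lay below the lowest of these 10 ratios, and the value with the mix held, 0.59, lay among them.

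Lgals3 also differed outside the epithelium. The stromal cluster 0 had 93.6 CPM (90.0 to 97.2) in UW and 284 CPM (278 to 290.0) in W, a log2 ratio of 1.60. As cluster 0 was taken as the measure of background, that measure was itself higher in W for Lgals3. Cluster 9, the lowest epithelial cluster, had 412 CPM in UW and 641 CPM in W. The part of background in the epithelial differences was not tested. The other stromal cluster, number 10 (Penk, Myoc), had 152 CPM in UW and 393 CPM in W, a log2 ratio of 1.37. Among the immune-led clusters of W, cluster 15 (Pf4, Lyz2) had 4115 CPM (4039 to 4192), cluster 14 had 2794 CPM, cluster 13 (Ccl3, Clec4d) had 1393 CPM and cluster 16 (Cd3g, Gzma) had 682 CPM. Cluster 15 thus had a higher Lgals3 level than any epithelial cluster of W.

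Immune markers were also higher in the epithelial sums of W. Neutrophil markers were at 23.0 CPM together in UW and 698 CPM in W, 5 of 5 higher, with S100a9 the most abundant at 22.1 CPM and 539 CPM. Langerhans and dendritic cell markers were at 2.31 CPM and 237 CPM, 4 of 4 higher, led by Cd74 at 1.63 CPM and 168 CPM; without cluster 14 they were at 2.20 CPM and 18.1 CPM. Monocyte and macrophage markers were at 106 CPM and 173 CPM, 5 of 6 higher. Itgam, the most abundant in UW but not in W, was at 83.1 CPM and 30.4 CPM. The rest of that list together was at 22.9 CPM in UW and 142 CPM in W. Without cluster 14 the sums were 106 CPM and 72.4 CPM, lower in W. Neutrophil markers without cluster 14 were at 23.0 CPM and 697 CPM, so cluster 14 made up most of the difference in Langerhans and dendritic cell markers and little of that in neutrophil markers. T cell markers were at 1.12 CPM and 3.26 CPM, 5 of 5 higher, led by Trac at 1.01 CPM and 2.36 CPM. No marker of these 4 lists was at 0 in both libraries, and the part of immune cells or their free RNA in the Lgals3 differences was not tested.

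**Figure D1:**
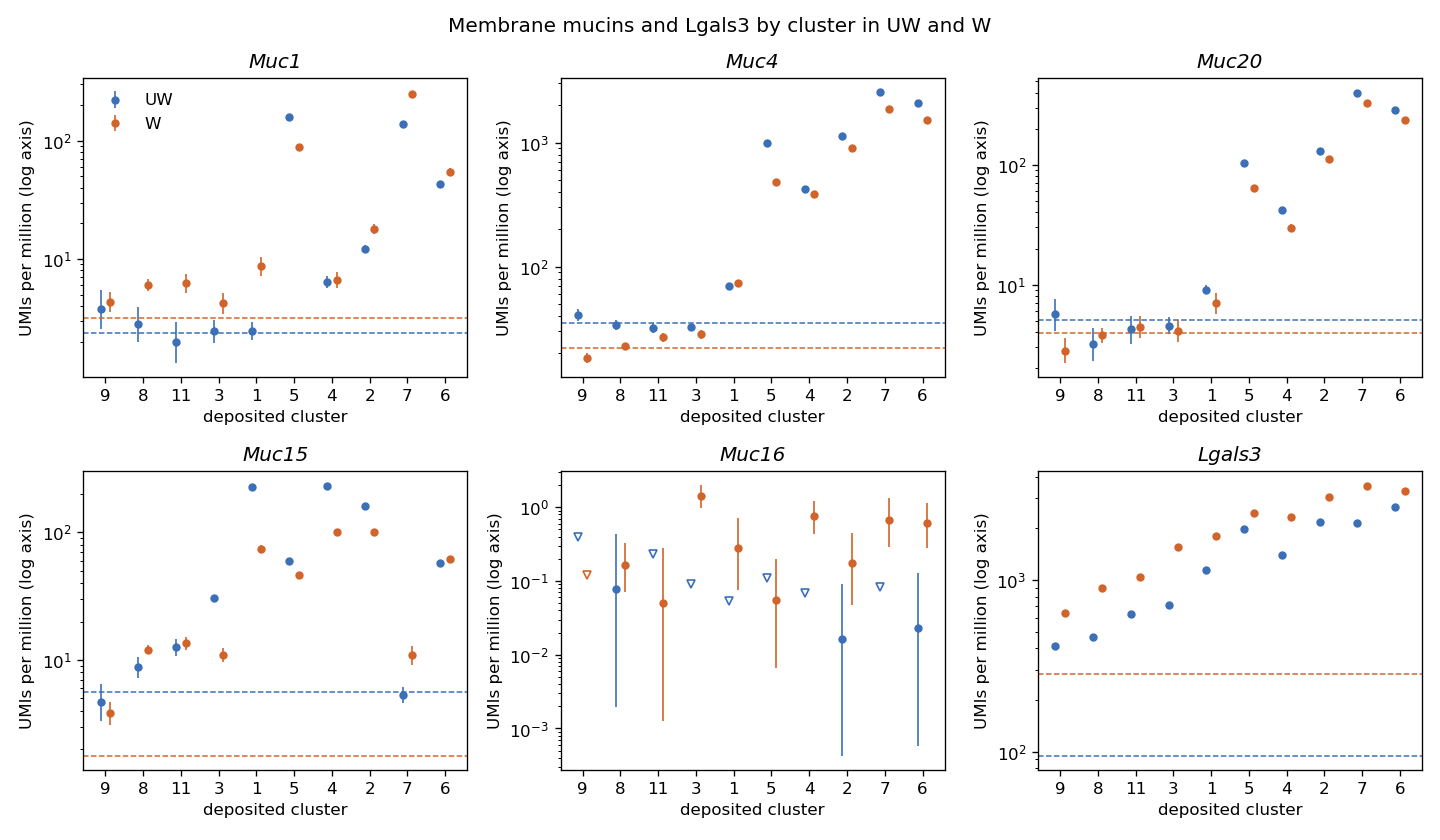
Level of each member (CPM, log axis) in 10 epithelial clusters, ordered along the horizontal axis from the lowest to the highest score of superficial markers, in UW (blue) and W (orange). Points are summed cells with exact 95% Poisson bars, dashed lines the stromal cluster 0 (0 for Muc16, not drawn), and open triangles the level of 3 UMIs where the count was 0. Muc4 reaches 2542 in cluster 7 of UW, Muc15 reaches 230.2 in cluster 4 of UW, and Lgals3 is higher in W in 10 of 10 clusters.

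**Figure D2:**
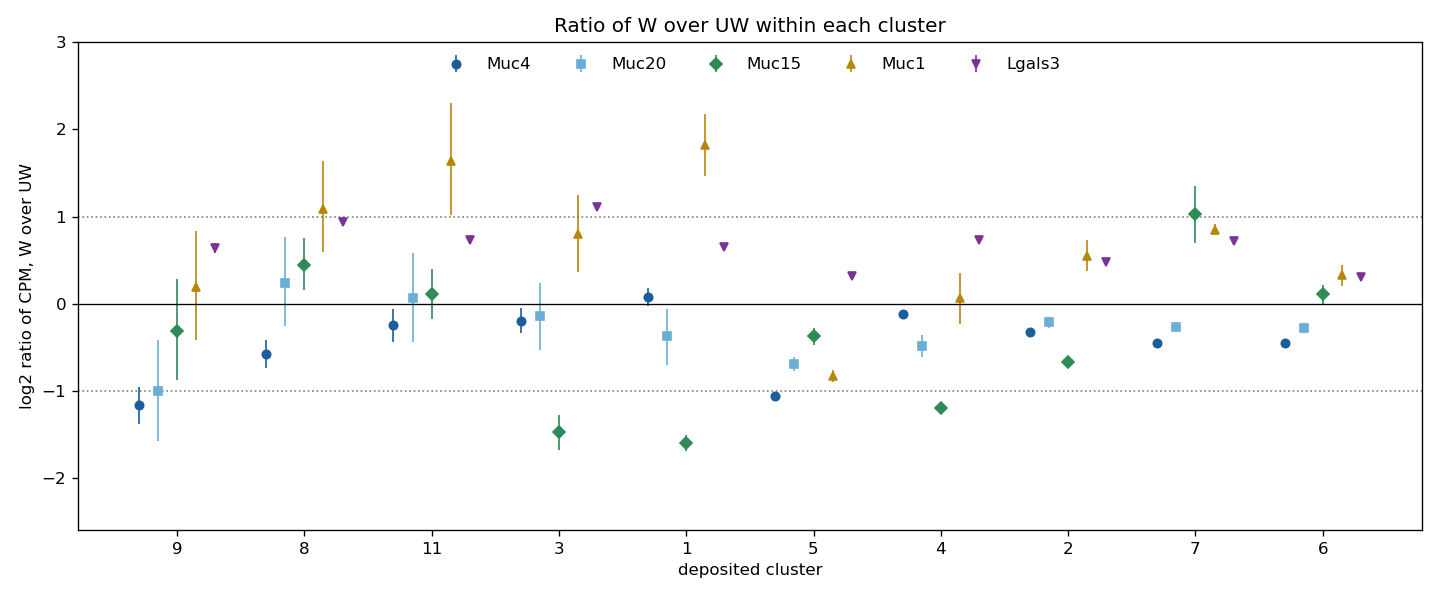
Log2 ratio of W over UW for Muc4, Muc20, Muc15, Muc1 and Lgals3 in the same 10 clusters, with 95% counting intervals as bars and dotted lines at a 2-fold difference either way. Muc15 runs from −1.60 in cluster 1 to 1.03 in cluster 7, whereas Lgals3 lies above 0 in each of the 10.

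Shares of cells tell how widely the mucins were detected. Each cell was thinned at random to 5000 UMIs, so that depth was equal, which left out 374 epithelial cells of UW and 274 of W. At least 1 of the 5 membrane mucins was detected in 74.4% of UW cells (73.6 to 75.1) and 52.0% of W cells (50.9 to 53.0). In stromal cluster 0, with median depths of 11853 UMIs in UW and 17588 in W before thinning, the shares were 20.6% (18.9 to 22.3) and 12.8% (11.3 to 14.5). Epithelial cells with at least 2 of the 5 made up 46.3% of UW and 27.4% of W, against 1.25% and 0.761% of stromal cells. Detection of several mucins in a cell was thus far above the stromal background in both libraries and less frequent in W.

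Gene by gene the share of epithelial cells was 61.1% in UW and 44.1% in W for Muc4, beside 15.7% and 8.67% of stromal cells. Muc15 was detected in 33.7% and 16.5%, beside 2.502% and 1.11% in stroma. Muc20 was detected in 30.0% and 18.6%, beside 2.63% and 2.34%. Muc1 differed little, at 9.95% and 9.68%, beside 0.949% and 1.46%. Lgals3 was detected in 97.2% and 98.0% of epithelial cells and also in 37.9% of UW and 63.6% of W stromal cells. Muc16 was detected in 0.0228% and 0.256%, with 0 stromal cells in either library.

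Clusters also differed in how many mucins a cell held. All 1492 thinned UW cells and all 513 thinned W cells of cluster 7 held at least 1 mucin. Cells with at least 3 went from 27.3% (25.1 to 29.7) in UW to 40.5% (36.3 to 44.9) in W, and Muc1 detection went from 30.6% to 46.0%. Cluster 5 went the other way, from 27.4% of cells with at least 3 mucins in UW to 15.2% in W, and from 82.9% to 58.2% for at least 1. In cluster 1 at least 1 mucin was detected in 74.7% of UW and 48.2% of W cells, with Muc15 going from 64.3% to 26.3%. In cluster 4 cells with at least 2 went from 61.3% to 38.1%, with Muc15 going from 67.0% to 38.7% and Muc4 from 81.7% to 77.9%.

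Within a cluster, detection of the mucins was not evenly tied together. In cluster 4 of UW, Muc15 was detected in 65.6% (62.9 to 68.3) of cells with Muc4 and in 72.9% (67.2 to 78.1) of cells without it. In cluster 5 of UW, Muc1 was detected in 48.6% (45.1 to 52.1) of cells with Muc4 and in 8.50% (5.34 to 12.7) of cells without. The same pair in W gave 42.0% (37.8 to 46.2) and 7.61% (5.64 to 9.99). Muc20 in cluster 5 behaved like Muc1, at 37.4% with Muc4 and 4.86% without in UW. In cluster 5 Muc1 was thus detected mostly in cells with Muc4 in both libraries, while Muc15 in cluster 4 was not detected more often in cells with Muc4.

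**Figure D3:**
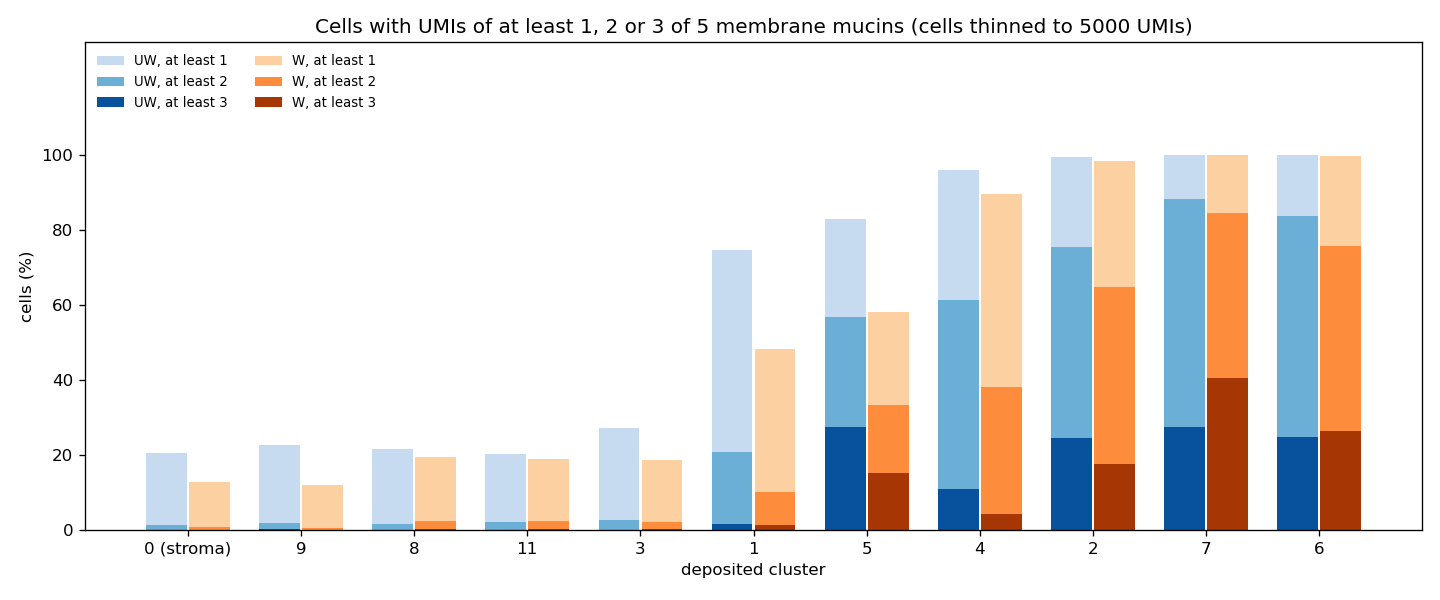
Share of cells (percent, after thinning to 5000 UMIs) with UMIs of at least 1, 2 or 3 of the 5 membrane mucins, in the stromal cluster 0 and then in the 10 epithelial clusters, for UW and W; the bars are overlaid, not stacked, and start at 0. Cells with at least 3 mucins go from 27.3% in UW to 40.5% in W in cluster 7.

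Other genes of the glycocalyx were counted from fixed lists, with the members left out, against the 23.3% of genes higher and 8.58% lower by at least 2-fold in the epithelial sums. A list of 10 genes held other membrane mucins, sialomucins and Mcam, an adhesion molecule. Of these 6 were in the table and 5 were tested, 3 of them higher and 1 lower, with a median log2 ratio of 1.51. Cd164, a sialomucin, was the only 1 of the 5 above 10 CPM in a sum, at 206 CPM in UW and 119 CPM in W (−0.80). Muc13 was at 1.49 CPM (1.36 to 1.62) and 0.148 CPM (0.104 to 0.205), a log2 ratio of −3.33, and of −2.51 with the mix held, and Emcn at 0.0541 CPM and 0.371 CPM. The other 2 that were higher, named after their values were seen, were Mcam at 0.0691 CPM and 0.330 CPM (2.25, mix held 1.05) and Podxl at 0.0420 CPM and 0.119 CPM. Markers of vessels, Emcn among them, were at 0.348 CPM together in UW and 1.52 CPM in W, 3 of 3 higher and none at 0 in both, led by Pecam1 at 0.258 CPM and 0.886 CPM, and the part of vessel cells or their free RNA in these 3 was not tested.

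Of the 13 secreted mucins and goblet cell genes 11 were in the table and 5 were tested, 2 higher and 1 lower (median 0.97, and 1.64 with the mix held). The gel-forming mucins Muc5ac and Muc5b had 0 and 2 UMIs in UW and 1 and 0 in W. Agr2, a chaperone of mucin folding, was at 4.67 CPM in UW and 26.5 CPM in W, a log2 ratio of 2.5012, and of 1.83 with the mix held; it is a leading gene of cluster 5. Fcgbp, a mucus protein, was at 9.13 CPM and 2.34 CPM (−1.96, mix held −1.74), and Spdef, a goblet cell regulator, at 0.180 CPM and 0.424 CPM (1.24, mix held 2.21).

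The enzymes that build mucin-type O-glycans did not differ in 1 direction. Of 36 listed, 33 were in the table and 29 were tested: 7 were higher, 4 lower and 18 within 2-fold, with a median of 0.15, and of 0.0060 with the cluster mix held. The 4 that were lower include the most abundant. St6galnac1, which caps O-glycans with sialic acid, was at 250.3 CPM (249 to 252) in UW and 81.6 CPM (80.5 to 82.7) in W (−1.62). Galnt3, 1 of the GalNAc transferases that start the chains, was at 204 CPM and 85.3 CPM (−1.25), Galnt7 at 174 CPM and 65.2 CPM (−1.42) and Galnt4 at 66.4 CPM and 18.1 CPM (−1.87). With the mix held the same 4 gave −1.01, −0.72, −1.02 and −1.67. Galnt18 was at 134 CPM and 116 CPM (−0.21, mix held 0.18), and St3gal4, a sialyltransferase, at 6.91 CPM and 17.8 CPM (1.37, mix held 0.62, below 2-fold). In cluster 5, where St3gal4 was highest, it was at 69.2 CPM in UW and 52.0 CPM in W. Gcnt1, with 0 UMIs in UW and 64 in W, was counted as higher; it is named for its 0 after its values were seen.

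Of the galectins other than Lgals3 and the ligand Lgals3bp, 9 in all, 8 were in the table and 7 were tested: 4 were at least 2-fold higher in W and 0 lower, with a median of 2.14. Lgals7, an epithelial galectin, was at 72.7 CPM (71.8 to 73.6) in UW and 819 CPM (816 to 823) in W, a log2 ratio of 3.49, and of 2.30 with the mix held. Lgals1 was at 6.85 CPM in UW and 59.7 CPM in W (3.12, mix held 2.65), and Lgals3bp, a secreted glycoprotein that galectin-3 binds, at 2.34 CPM and 31.4 CPM (3.74). In W Lgals1 ranged only from 35.8 to 73.0 CPM over the 10 clusters, and the immune markers given above were higher in W too; the part of immune cells or free RNA in these galectin differences was not tested. Lgals8 differed little, with 22.5 CPM and 26.0 CPM (0.21).

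Sheddases, their inhibitor and sialidases gave 1 gene higher, 2 lower and 6 within 2-fold of the 9 tested, with a median of −0.35. Mmp14, a membrane metalloproteinase, was at 56.9 CPM in UW and 74.4 CPM in W (0.39), Adam10 at 42.9 CPM and 28.4 CPM (−0.60) and Timp3, which inhibits such proteases, at 42.5 CPM and 45.1 CPM (0.085, and −1.11 with the mix held). With the mix held the list had 1 higher and 3 lower, with a median of −0.70. Of the 12 cytoplasmic and receptor partners 11 were within 2-fold and 1 higher, with a median of −0.13. Ezr, which ties membrane mucins to actin, was at 606 CPM in UW and 329 CPM in W (−0.88), Ctnnb1, which encodes beta-catenin, at 190 CPM and 171 CPM (−0.15), and Slc9a3r1, a scaffold protein that binds ezrin, at 183 CPM and 153 CPM (−0.26, mix held 0.083). Msn, a relative of ezrin that leukocytes also express, was at 1.02 CPM and 39.3 CPM (5.28, mix held 4.03), and whether immune cells in cluster 14 or free RNA carry it was not tested.

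To place the 5 mucins among all genes, the 3 genes with the closest pattern to each are given, taken over 21 sums of epithelial cells from both libraries, by Pearson correlation (r) of log2 CPM among 7923 genes. The sums share libraries and differ in depth, so r is a description. Muc4 had Muc20 as its closest gene (r 0.989), with Slc28a3 (0.989) and Krt80 (0.985) after it. Muc20 had Anxa9 (0.993), Kifc3 (0.990) and 2310007B03Rik (0.990). Muc15 had Atp6v1d (0.973), Ankrd35 (0.971) and Map3k6 (0.962), and Map3k6 is also a leading gene of cluster 4.

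The closest patterns to Muc1 were those of Ripply3 (0.955), Adh6a (0.951) and Ocm (0.9503). Ripply3, for instance, was at 359 CPM in cluster 7 of UW and 198 CPM in cluster 5, and at 2.62 CPM in cluster 1. In W it was lower in clusters 7 and 5, at 338 and 92.5 CPM, whereas Muc1 was higher in cluster 7. Adh6a was higher in cluster 5 of W, at 181 CPM against 87.9 CPM, where Muc1 was lower. Ocm differed as Muc1 did in both, at 80.7 and 61.3 CPM in cluster 5 and 55.3 and 174 CPM in cluster 7. Muc16 had looser matches, Vps37b (0.821), Cystm1 (0.819) and Ifi205 (0.810), and rests on few UMIs; 0 of these 3 were kept without cluster 14. Between members r ran from 0.678 to 0.989 in the 6 pairs of Muc1, Muc4, Muc20 and Lgals3. It ran from 0.0553 to 0.456 in the 4 pairs of Muc15 with them, from 0.0558 to 0.408 in the 4 pairs of Muc16 with them, and was −0.047 between Muc15 and Muc16. Of the 18 closest genes of all 6 members, 11 were kept without cluster 14, 6 by Spearman correlation and 3 in UW alone, so the choice of the closest genes depends on the measure.

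Muc4 and Muc20 had like patterns across clusters, so their upstream sequences are shown. Of the 6 members 5 had an entry in the RefSeq promoter table (GRCm38.p6), and Muc15 had none. The 250 bases before the start were searched on both strands for 4 short motifs. Of 27025 windows of that length, TATAAA occurs in 13.0%, while GGGCGG is found in 32.9%. CACCC is in 51.3% of them and the pattern TGANTCA in 6.87%. Muc4, at chr16:32735636-32735885 on the plus strand, held 1 TATAAA and 2 CACCC. Muc20, at chr16:32797436-32797685 on the minus strand, held 3 CACCC, of which those on the other strand read GGGTG. Neither GGGCGG nor the pattern TGANTCA was in either window, and no matches overlapped. Capitals mark the matches, and each sequence runs 5′ to 3′ on the strand of its gene.
Muc4: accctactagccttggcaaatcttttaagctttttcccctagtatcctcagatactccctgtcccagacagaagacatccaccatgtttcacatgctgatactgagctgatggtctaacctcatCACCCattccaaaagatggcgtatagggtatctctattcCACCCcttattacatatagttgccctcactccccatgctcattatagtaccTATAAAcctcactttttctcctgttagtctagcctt
Muc20: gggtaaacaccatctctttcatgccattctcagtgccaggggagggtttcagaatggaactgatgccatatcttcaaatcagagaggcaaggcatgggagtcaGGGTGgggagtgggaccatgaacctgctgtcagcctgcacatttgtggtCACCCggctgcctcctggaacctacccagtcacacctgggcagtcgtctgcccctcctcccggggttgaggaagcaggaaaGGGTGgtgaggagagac
A match is a description of the letters in the window and not a site.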

How the data were processed

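Counts of UMIs per cell were deposited by the authors as raw counts, with a table of cells that gives library and cluster. The authors made them with Cell Ranger 3.1.0 and Seurat 3.2.2, removed doublets with DoubletFinder 2.0.3 and left out cells below 500 or above 8000 genes or beyond 10% mitochondrial counts. The labels name mouse build mm9 and the paper mm10. All deposited cells were used: 16450 in UW and 12417 in W. For both conditions the paper reports more cells after its quality control than these. The deposited cluster numbers have a gap between 11 and 13. All shares of cells given here are therefore shares of the deposited cells. Counts were summed per cluster and library (at least 50 cells) and scaled to the total. A gene was tested with at least 20 counts over both epithelial sums, and called at 2-fold (log2 ratio of 1). Members and lists were chosen with earlier results of these data known. Named genes are the 6 members; the 3 most abundant of each list and up to 3 past 2-fold in each direction with at least 10 CPM; and for each member the 3 genes of highest r (those of Lgals3 are not given), out of those that reach 20 CPM in any sum. Alternatives were TMM (edgeR 4.0.16) and median-of-ratios (DESeq2 1.42.0) scaling, the mean CPM per cell, a held cluster mix, cells with at least 1000 genes and at most 5% mitochondrial counts, the sums without the conjunctival cluster, thinning to 2000 or 10000 UMIs or none, other measures of likeness and a lower count minimum. Leaving out cluster 14, comparing with stroma per cell, and leaving out 305 UW and 164 W cells that an earlier DoubletFinder run called doublets, were chosen after seeing the data. The 2-fold calls, the ratio intervals and the likeness ranking were also run on simulated data. The outcome is not given here, and no result rests on it. Work was done in Python 3.11.15 (numpy 2.4.6, scipy 1.17.1, pandas 2.3.3, matplotlib 3.10.9) and R 4.3.3.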

Additional observations from a re-analysis of the deposited data

Results flagged for a closer look

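The log2 ratio of W over UW of Muc15 had opposite signs in epithelial clusters of the same comparison, at 2-fold or more and with Poisson intervals of UW and W apart in each. It was 1.03 (0.69 to 1.35) in cluster 7 (Lce3a, Lce3f), where 23.2% of genes were at least 2-fold higher and the median of all genes was 0.26, against −1.60 in cluster 1 (Pygl, Dapl1), −1.48 in cluster 3 (Krt18, Itgb4) and −1.20 in cluster 4 (Cldn17, Dsg1a). The difference between these clusters was not tested. The level of Muc15 in cluster 7 of UW was above that of stromal cluster 0 in UMIs per cell and not in CPM. Such opposite differences were found in 2.60% of the genes tested in all 10 clusters.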

How the results depend on the processing

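Muc4, Muc15 and Muc20 were lower in W, and Muc16 higher, under each of 8 alternatives, and Muc1 and Lgals3 changed sign under some. TMM scaling gave log2 ratios of −0.37 for Muc1, −1.44 for Muc4, −1.76 for Muc15, −1.34 for Muc20 and −0.043 for Lgals3, and median-of-ratios scaling −0.38, −1.46, −1.77, −1.36 and −0.059 in that order, the shift that each scaling gives every gene. The mean CPM per cell gave 0.026, −0.90, −1.37, −0.77 and 0.34, so that Muc4 and Muc20 fell short of 2-fold. The share of all genes past 2-fold was not counted on that scale. The cluster mix held at UW gave 0.36, −0.45, −0.99, −0.30 and 0.59, with 0 members at least 2-fold lower, where 10.1% of genes were. Without the conjunctival cluster 5 the values were −1.25 for Muc4, −1.62 for Muc15, −1.16 for Muc20 and 0.14 for Lgals3. Without first-run doublets Lgals3 was at 0.19, and without cluster 14 it was at 0.18 and Muc4 at −1.19. The cause of these differences was not tested, other than for the scalings, which follow from their construction. The held mix also weights clusters by cells in place of UMIs, and these effects were not separated. The stricter cell filter left out 1038 UW and 1157 W cells and moved no ratio beyond its counting interval. A minimum of 1 count in each sum gave 4341 genes higher (3873 before) and 1603 lower (1424). Epithelial cells with at least 1 mucin were 88.5% of UW and 76.8% of W as deposited, 60.5% and 40.0% thinned to 2000 UMIs, and 83.1% and 60.7% thinned to 10000, lower in W at each depth. Of the 18 closest genes of the 6 members, 6 were kept by Spearman correlation, 3 in UW alone and 11 without cluster 14. Without cluster 14 the marker sums of Langerhans and dendritic cells were 2.20 CPM in UW and 18.1 CPM in W (2.31 and 237 with it), and those of monocytes and macrophages 106 and 72.4 CPM (106 and 173 with it). Compared with stromal cluster 0 as UMIs per cell, 95 levels of a member in a cluster and library were above it, in place of 81 as CPM.

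With 1 pooled library per condition, and no mouse given for the deposited cells, neither variation between mice nor a library effect was measured here, and leaving out a library would leave no comparison. Muc16 is limited by 3 and 86 UMIs, and low Muc1, Muc4 and Muc20 in deep clusters by the stromal background. In some of these clusters the comparison with it depends on the scale. UMI counts do not compare levels between genes. RNA says nothing of mucin protein, glycans or shedding.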
